A study of Mus musculus with 5 samples.

Results

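The cells described here are the hepatocytes of the 2 mice kept on the regular diet, which the labels abbreviate LFD. They were all cells whose column in the unsmoothed table carries the name LFD1 or LFD2, 216 of the 454 cells of the series, with 132 cells from LFD mouse 1 and 84 from LFD mouse 2. The mice were male C57BL/6J littermates, 8 weeks old when the diets began, and received the regular diet for 12 weeks. No genetic change or other agent is named for this group. The remaining cells came from 3 littermates on a high fat diet (HFD) and enter no result below. Messenger RNA of single cells was captured in droplets by Drop-seq, which tags each captured molecule with a unique molecular identifier (UMI), so that copies made by amplification count once. A UMI marks the 3′ end of a transcript whatever its length, and shares of UMIs can be set side by side between genes without a correction for length.

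Hepatocytes are the parenchymal cells of the liver. They secrete most proteins of blood plasma, build lipoproteins, detoxify drugs and hormones, and make glucose, urea and bile acids. They do not all do so equally: along the liver lobule, cells near the portal vein are known for urea and glucose production and for plasma protein genes, and cells near the central vein for cytochrome P450 enzymes and glutamine synthesis, a division called zonation. The cells were dissociated before capture, so the position of each cell in the lobule was not measured. In mice, males also secrete large amounts of major urinary proteins (MUPs), pheromone carriers encoded by a cluster of closely related genes on chromosome 4.

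The libraries held 446868 UMIs in LFD mouse 1 and 309050 in LFD mouse 2. A cell of mouse 1 held from 1037 to 15587 UMIs (median 2734) and a cell of mouse 2 from 884 to 16462 (median 3075.5), with a median of 1012.5 and 1127.5 genes detected per cell. The libraries shared 0 cell barcodes with each other and 0 with the HFD libraries. Mitochondrially encoded messenger RNAs took 1.84% and 1.78% of UMIs and mitochondrial ribosomal RNAs 3.66% and 3.30%, in mouse 1 and mouse 2. Paired values below are given in that order. A gene at 0 UMIs in a whole library could still have reached 6.71 and 9.71 CPM (counts per 1000000 UMIs), the level of 3 UMIs.

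The label hepatocyte held against its markers. Alb (serum albumin), Apoa2 (a lipoprotein component) and Fabp1 (liver fatty acid binding protein) had UMIs in 100% of cells of both mice, and each of the 25 hepatocyte markers examined had UMIs in at least 84.8% of cells of mouse 1 and 71.4% of cells of mouse 2. Together these 25 genes gave 289067 and 284126 CPM. The 10 marker lists of other cell types gave at most 44.8 CPM each. Macrophage markers stood at 42.5 and 12.9 CPM, sinusoidal endothelial markers at 22.4 and 19.4 CPM, stellate cell markers at 17.9 and 16.2 CPM, and cholangiocyte markers at 44.8 and 25.9 CPM, where Spp1 gave 14 of 20 and 6 of 8 UMIs. Defining genes of those types were at or near 0: Krt19 had 0 UMIs in both mice, Stab2 had 0 and 1, Clec4f 2 and 1, and Dcn 2 and 3. Markers of T or NK cells gave 0 and 1 UMI, and those of B cells 0 and 1 UMI. Cells with 3 or more UMIs of a list of another type numbered 4 of 132 and 3 of 84. No doublet caller was run.

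A short list of transcripts, most but not all of them for secreted proteins, filled much of the hepatocyte transcriptome. The 20 most abundant transcripts took 34.2% of all UMIs in mouse 1 and 34.5% in mouse 2 (34.3% ± 0.171, SD, n = 2), out of 10541 genes with any UMI. The first 50% of UMIs came from 81 genes in mouse 1 and 80 in mouse 2. Alb had the highest mean share, 4.06% ± 0.20 (SD, n = 2). It held 3.92% of UMIs in mouse 1 (exact Clopper-Pearson 95% interval 3.86 to 3.98) and 4.20% in mouse 2 (4.13 to 4.27). Apoa2 followed with 3.94% (3.88 to 3.995) and 3.77% (3.70 to 3.84). These intervals overlap in mouse 1, where Apoa2 was slightly higher and the order of the leading pair is not resolved. They do not overlap in mouse 2, where Alb was higher. All intervals here cover counting error only, not the spread between cells or between mice.

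**Figure D1:**
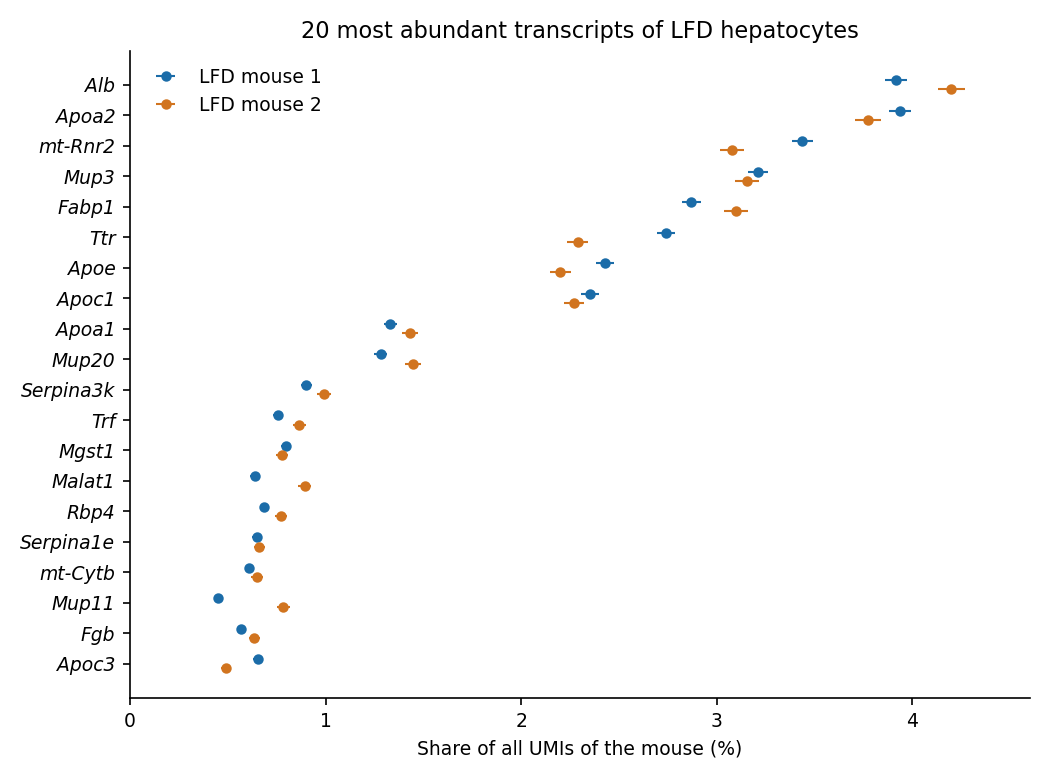
Share of all UMIs of a mouse (x axis, %) for the 20 transcripts of highest mean share (y axis), with 1 point per LFD mouse and exact 95% intervals of counting error as bars. Alb and Apoa2 lie near 4% in both mice, and Mup11 shows the widest gap relative to its level, 0.448% against 0.785%.

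Apolipoproteins, the protein shells of lipoprotein particles, took 5 of the 20 places. Apoe, a ligand for lipoprotein receptors, stood at 2.43% and 2.20%, and Apoc1, a small exchangeable apolipoprotein, at 2.35% and 2.27%. Apoa1, the main protein of high density lipoprotein, stood at 1.33% and 1.43%, and Apoc3, an inhibitor of lipoprotein lipase, at 0.653% and 0.491%. The list of 15 apolipoprotein genes summed to 11.61% and 11.01% of UMIs. Plasma carriers gave a larger sum, 13.7% and 13.4% for 25 genes. Among them were Ttr (transthyretin, a carrier of thyroid hormone and of the retinol carrier) at 2.74% and 2.29%, Trf (transferrin, the iron carrier) at 0.757% and 0.865%, Rbp4 (the retinol carrier) at 0.687% and 0.772%, the protease inhibitor Serpina3k at 0.901% and 0.990%, and Serpina1e, an alpha-1-antitrypsin gene, at 0.649% and 0.662%. Fgb, the beta chain of fibrinogen, stood at 0.570% and 0.635%. Of products that stay in the cell, Fabp1 held 2.87% and 3.10%, and Mgst1, a microsomal glutathione transferase, 0.797% and 0.775%.

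MUP genes took 5.96% and 6.87% of UMIs. Mup3 held 3.21% and 3.15%, Mup20, which encodes the male pheromone darcin, 1.28% and 1.45%, and Mup11 0.448% and 0.785%. MUP sequences are nearly alike, and the sources used here do not say how shared reads were assigned, so the division of UMIs between MUP genes is uncertain. The same holds for the Serpina1 genes. Noncoding and mitochondrial RNAs were also among the 20: the mitochondrial ribosomal RNA mt-Rnr2 at 3.44% and 3.08%, the nuclear long noncoding RNA Malat1 at 0.638% and 0.894%, and the mitochondrial message mt-Cytb at 0.609% and 0.649%.

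The levels were close between the mice for most of these genes. Of the 100 most abundant genes by mean share, 92 lay within 1.5-fold between the mice. The 8 others were Mup1, Mup11, Mup12, Mup17, the predicted gene Gm26924 and the chaperone gene Hsp90b1, higher in mouse 2, and complement C3 and the glutathione transferase Gstp1, lower in mouse 2. The mouse 2 to mouse 1 ratio was 2.48 for Mup1 and 0.498 for Gstp1. With 2 mice and no contrast there is no test of these differences. Enzyme groups took smaller sums: fatty acid uptake, binding and oxidation 4.58% and 4.91%, drug and steroid metabolism 4.13% and 3.80%, nuclear genes of oxidative phosphorylation 3.81% and 3.56%, urea cycle and amino acid catabolism 2.55% and 2.66%, glucose metabolism 1.02% and 1.03%. Transcription factors of hepatocyte identity and metabolism summed to 0.168% and 0.183%, and immediate early and heat shock genes, which respond to stress, to 0.240% and 0.294%.

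Single hepatocytes of one mouse differed most in MUP genes and in enzymes known from the neighbourhood of the central vein. To measure this, the variance of a gene's UMIs over the cells of a mouse was divided by the variance that counting alone gives at each cell's depth. This index of dispersion is 1 where all cells hold the same share of a gene. A gene was called variable where its index passed a limit that counting noise seldom passes, set from the chi-square distribution at 1.43 for mouse 1 and 1.55 for mouse 2, in both mice. Of 761 genes with at least 0.5 UMIs per cell in each mouse, 77 were called, 10.1% of those examined. The limit was passed by 113 genes in mouse 1 alone (14.8%) and 114 in mouse 2 alone (15%), and 68.1% and 67.5% of these were shared. The median index over all 761 genes was 1.11 and 1.14, so most genes lay near the counting noise. Across the genes, log indices of the mice correlated with r = 0.84, a description over genes that share their libraries. With cells thinned to 1916 UMIs, which leaves 162 of them, 39 genes were called, and with a limit of 2 for the index 46 were. Cells of a mouse are not replicates of a diet, and no p-value is given for them.

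**Figure D2:**
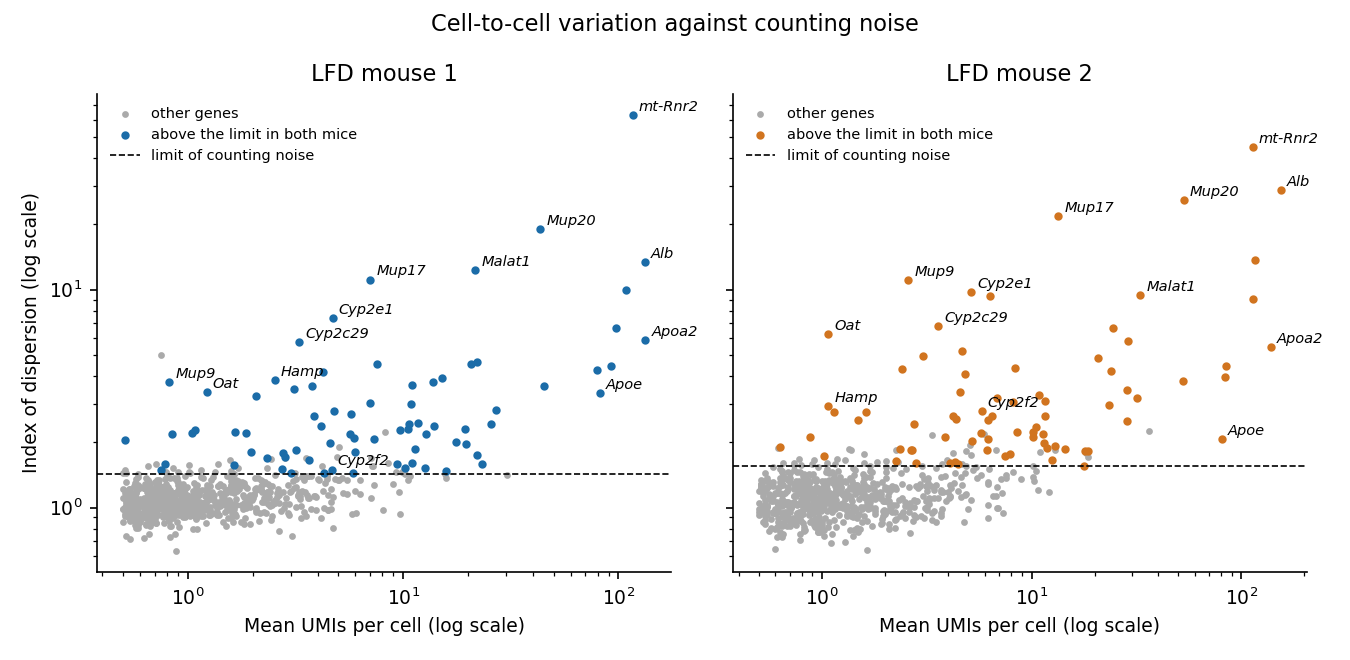
Index of dispersion (y axis, log scale) against mean UMIs per cell (x axis, log scale) for 761 genes in each LFD mouse. The dashed line is the limit of counting noise, coloured points are the 77 genes above it in both mice, and Mup17, mt-Rnr2, Mup20 and Alb stand far above it.

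Size of variation is given as excess CV, the coefficient of variation of a gene's share between cells that remains after counting variance is taken off. An excess CV of at least 1 in both mice was found for 4 genes, Mup9, Mup17, Cyp2e1 and Cyp2c29, and of at least 0.5 for 26 genes. Cyp2e1 encodes a P450 enzyme that oxidises ethanol and paracetamol and lies on chromosome 7 (mm10, 140763739 to 140774987). Per 10000 UMIs of a cell it ranged from 0 through a median of 9.49 to 85.7 in mouse 1 and from 0 through 5.28 to 77.2 in mouse 2. It was at 0 in 20 of 132 and 24 of 84 cells. Its index was 7.39 and 9.73, and its excess CV 1.10 and 1.12. Cyp2c29, a P450 of fatty acid and drug oxidation on chromosome 19, ranged from 0 through 5.49 to 58.4 in mouse 1 and from 0 through 4.97 to 58.5 in mouse 2 (excess CV 1.17 and 1.06). Both genes thus ran in either mouse from cells with no UMI to cells far above the median.

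Mup17, on chromosome 4 (mm10, 61591929 to 61595871), was spread as widely. Its lower quartile, median and upper quartile in mouse 1 were 5.81, 13.7 and 38.8 UMIs per 10000, with a highest cell at 122. In mouse 2 they were 6.48, 13.1 and 88.2, with a highest cell at 163. The medians were alike, and the upper quartile was higher in mouse 2. Its index was 11.1 and 21.7. Mup9 had the highest excess CV, 1.44 and 1.53, but 1 cell gave 30.6% and 46.5% of its summed squared deviation. Among the other called genes, 1 cell gave over 30% in either mouse for Oat, Gm26924, Mup21, Mup18 and mt-Rnr1.

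The other named variable genes fell into a few roles. Enzymes of drug, retinoid and xenobiotic handling were Cyp2c50 (excess CV 0.92 and 1.05), Cyp1a2 (0.84 and 0.96), Aldh1a1, which makes retinoic acid (0.64 and 0.66), and the glutathione transferase Gstm1 (0.53 and 0.64). Slco1b2, an organic anion carrier of the blood-facing membrane, had 0.60 and 0.79. Metabolic enzymes were Oat, ornithine aminotransferase (0.997 and 1.56), Rgn, the lactonase regucalcin (0.91 and 1.02), Blvrb, a biliverdin reductase (1.19 and 0.95), and Acaa1b, a peroxisomal thiolase (0.79 and 0.68). Hamp, which encodes the iron hormone hepcidin, had 0.95 and 1.16, with levels from 0 through 4.84 to 58.0 UMIs per 10000 in mouse 1 and from 0 through 0 to 34.7 in mouse 2. With thinned cells, 16 of the 25 genes named by excess CV stayed called and 6 did not, among them Hamp, Cyp2c50, Cyp1a2 and Aldh1a1. The rest had no value there. Blvrb rested on 67 and 53 UMIs in all, 0.51 and 0.63 per cell, close to the minimum.

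Abundant genes were measured most finely, and 19 of the 20 most abundant genes and 53 of the 100 most abundant were called. Their excess CV was mostly small. It was 0.16 and 0.09 for Apoe, 0.19 and 0.15 for Apoc1, 0.16 and 0.23 for Rbp4, 0.18 and 0.17 for Apoa2 and 0.16 and 0.23 for Gnmt, a glycine methyltransferase, the lowest values among the called genes. Apoe ranged only from 115 through 245 to 396 UMIs per 10000 in mouse 1 and from 107 through 219 to 336 in mouse 2. Alb varied more, from 127 through 362 to 967 and from 91.9 through 415 to 810 (excess CV 0.27 and 0.43). Of the 20 most abundant genes, those that varied most were Mup20 (0.61 and 0.59), Malat1 (0.52 and 0.52) and mt-Rnr2 (0.63 and 0.57), the last of which ranged from 63.5 to 1672 UMIs per 10000 in mouse 1 and from 28.9 to 878 in mouse 2.

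Gene lists differed in how many of their members were called, against the 10.1% over all genes examined. The lists overlap, and only members over the minimum of 0.5 UMIs per cell enter the counts. Calls also follow abundance, since 19 of the 20 most abundant genes were called, and the counts are not adjusted for it. The 5 called apolipoproteins are all among those 20, so a high count in a list of abundant genes can reflect finer measurement. Called genes made up 17 of 22 members of the pericentral list (genes known from near the central vein), 10 of 13 MUP genes, 5 of 6 mitochondrially encoded messages and both mitochondrial ribosomal RNAs. The pericentral members not called were Cyp27a1, Ang, Por, Ces3a and Pon1, and Glul, which marks the cells next to the central vein, was below the minimum. Of the periportal list (genes known from near the portal vein) 12 of 35 were called, among them Cyp2f2, a P450 (0.39 and 0.59), and Sds, serine dehydratase (0.83 and 0.48). Of its urea cycle and glucose genes, Cps1 was called, and Ass1, Arg1, Pck1 and G6pc were not. Plasma carriers had 9 of 24 called, apolipoproteins 5 of 13, acute phase proteins 5 of 13, drug and steroid metabolism 12 of 40, male-biased liver genes 10 of 24, and metallothionein, iron and haem genes 5 of 10. Lists near the overall share were complement and coagulation with 3 of 31, urea cycle and amino acid catabolism with 5 of 35, fatty acid uptake, binding and oxidation with 3 of 23, lipogenesis and lipid droplets with 2 of 13 (Scd1 and Thrsp), and cholesterol and bile acids with 2 of 17. Antioxidant enzymes had 3 of 14.

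Some other groups showed no called gene. These were 63 nuclear genes of oxidative phosphorylation, 22 cytosolic ribosomal protein genes, 15 genes of protein folding in the endoplasmic reticulum and 12 genes of glucose metabolism, 112 in all. In mouse 1, 4 of the 112 passed the limit, with Fbp1 (fructose bisphosphatase) highest at an index of 1.71, and in mouse 2 3 passed it, with Hspa5 (the chaperone BiP) highest at 1.82. Most of these genes are not abundant, so smaller variation was not detectable at this depth. Only 1 transcription factor (Cebpa) and 3 stress genes (Hspa8, Hsp90ab1 and Dnaja1) were over the minimum, and 0 of the 4 were called.

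Many of the variable genes were correlated from cell to cell in both mice, while others, such as Hamp, had no called pair. The strongest positive pairs were mostly among genes known from the central vein and Mup17. The strongest negative pairs mostly set such genes against Alb, Cyp2f2 and Mup3. Mup20, Fgb and Serpina1e were also negative with Cyp2e1. Correlations were computed within each mouse across its cells on depth-adjusted residuals, for 385 genes with at least 1 UMI per cell in each mouse. Of 73920 pairs, 596 had a correlation of at least 0.3 in size with the same sign in both mice (0.806%). Of these, 329 pairs were positive (0.445%) and 267 negative (0.361%). No pair reached 0.3 with opposite signs in the mice. At least 0.3 was reached by 1109 pairs in mouse 1, of which 53.7% are among the 596, and by 2922 pairs in mouse 2, of which 20.4% are. Mouse 2 has fewer cells, over which r scatters more. The points of each correlation share a library, and the shares of one cell sum to 1, so a cell rich in some transcripts is lower in the rest. Among the 596, 336 pairs hold none of the 20 most abundant genes, 206 positive and 130 negative. With those genes left out of the totals and of the pairs, 383 pairs were called. The 596 pairs fell to 261 with cells thinned to 1916 UMIs and to 326 without the 2 most deviating cells for each pair and mouse.

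**Figure D3:**
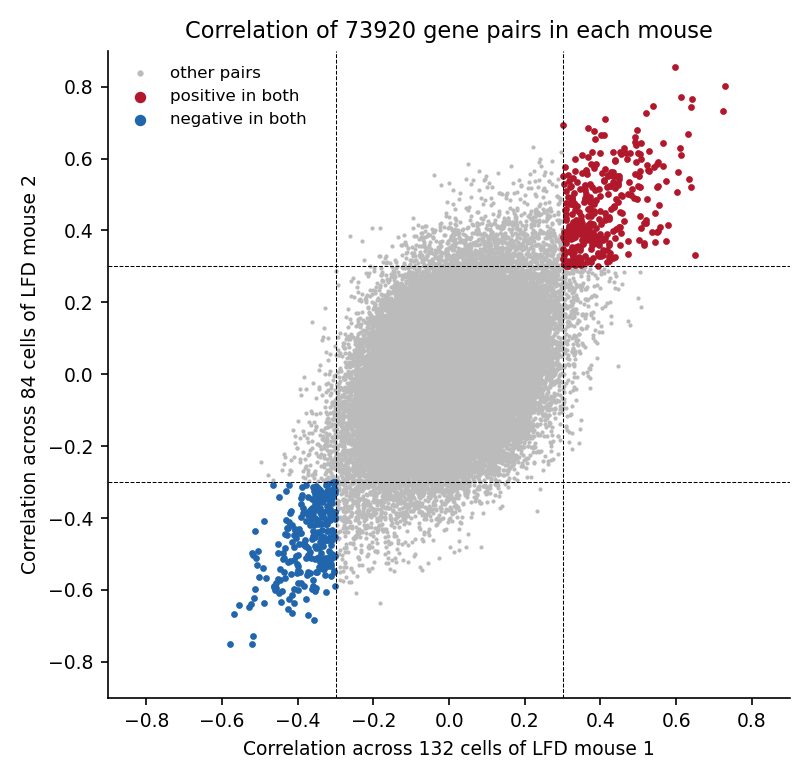
Correlation of each of 73920 gene pairs across the 132 cells of LFD mouse 1 (x axis) and the 84 cells of LFD mouse 2 (y axis). Dashed lines mark 0.3 in size, red points are the 329 pairs positive in both mice and blue points the 267 negative in both, and the opposite corners hold no pair.

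Only 117 of the 385 genes took part in a called pair, and 586 of the 596 pairs held at least 1 of the variable genes. Of the 385 genes, 72 were called variable, so many pairs hold such a gene whatever their correlation. Genes near the counting noise also have little variation left to correlate. The count of 586 can thus follow in part from the method. Outside a gene's own family, Acaa1b had most partners, 51, followed by Cyp2e1 with 42, Rgn with 39, Mup3 with 36 and Gsta3 with 35. The strongest positive pair was Mup17 and Cyp2e1, with r = 0.73 in mouse 1 and 0.80 in mouse 2. In the 33 cells of mouse 1 with least Mup17 the median of Cyp2e1 was 2.97 UMIs per 10000, and in the 33 with most it was 27.5. In mouse 2 the medians were 2.63 and 34.0 over 21 cells each. Cyp2c29 and Cyp2e1 followed with r = 0.72 and 0.73, Cyp2e1 and Rgn with 0.64 and 0.76, Cyp2c29 and Rgn with 0.64 and 0.74, and Cyp2e1 and Cyp1a2 with 0.63 and 0.67. Mup17 and Rgn reached 0.60 and 0.85. These 5 genes thus tended to be high in the same cells and low in the same cells, with exceptions. In 1 cell of mouse 1, Cyp2e1 stood at 36.8 UMIs per 10000 and Mup17 at 0. The transporter Slco1b2 (with Rgn 0.61 and 0.63), Acaa1b (with Cyp2c29 0.57 and 0.58), Mgst1 (with Mup17 0.56 and 0.64), Cyp2c50 (with Rgn 0.55 and 0.59) and Oat (with Cyp2e1 0.55 and 0.58) joined them.

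The strongest negative pairs set Alb and Cyp2f2 against the same genes. Alb and Cyp2e1 had r = -0.58 and -0.75. In the cells with least Alb the median of Cyp2e1 was 27.5 UMIs per 10000 in mouse 1 and 36.8 in mouse 2, and in the cells with most Alb it was 3.00 and 0. Alb itself had a median of 453 in the cells of mouse 1 with least Mup17 and of 263 in those with most, and in mouse 2 of 507 and 209. Alb was thus lower, but far from absent, where Mup17 was high. Cyp2c29 and Cyp2f2 had r = -0.55 and -0.64, Cyp2f2 and Cyp2e1 -0.52 and -0.64, and Cyp2f2 and Rgn -0.51 and -0.60. Mup3 was opposed to Acaa1b (-0.52 and -0.73) and to Slco1b2 (-0.52 and -0.62). Positive pairs on this side were Serpina1e and Mup3 (0.54 and 0.58), Mup3 and Cyp2f2 (0.53 and 0.57), Alb and Cyp2f2 (0.41 and 0.67), Fgb and Fgg, which encode chains of fibrinogen (0.48 and 0.52), and Mup20 and Sds (0.48 and 0.50).

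**Figure D4:**
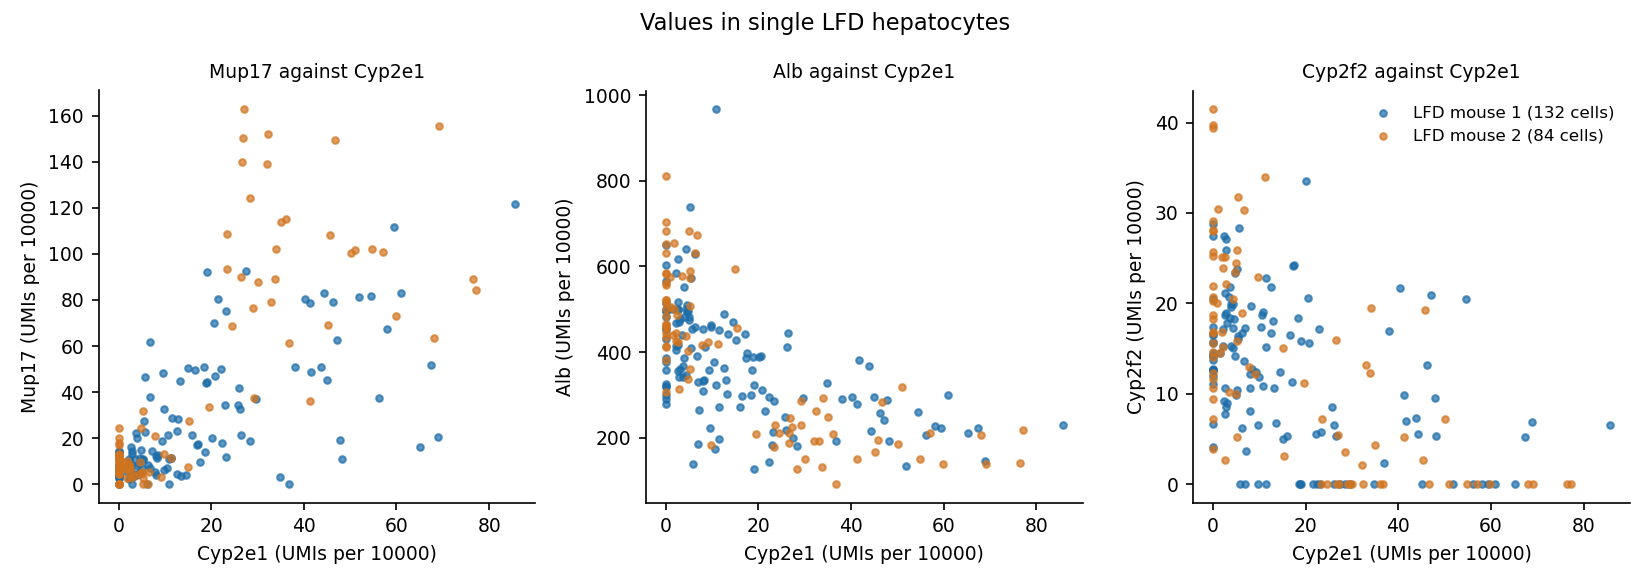
UMIs per 10000 of Mup17, Alb and Cyp2f2 (y axes) against Cyp2e1 (x axes), 1 point per cell, 132 cells of LFD mouse 1 and 84 of LFD mouse 2. The cells highest in Mup17 also hold Cyp2e1, Alb is lower in cells rich in Cyp2e1, and most cells rich in Cyp2e1 lie low in Cyp2f2.

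Counted by list, the called pairs divide likewise. These counts are no independent support: they hold pairs named above, and the lists were chosen with earlier results of these data known. Within the pericentral list, 74 of 136 pairs were called positive (54.4%, beside 0.445% of all pairs) and 0 negative, with a median r of 0.33 and 0.39, beside 0.000768 and -0.00183 over all pairs. Within the periportal list 31 of 465 were positive and 0 negative, with a median r of 0.11 and 0.15. Between these lists 109 of 527 pairs were negative (beside 0.361% of all pairs) and 0 positive, with a median r of -0.20 and -0.21. Pairs of plasma carriers with pericentral genes were negative in 57 of 374 cases and positive in 0. The carrier list shares genes such as Alb, Trf and Hpx with the periportal list, so these counts overlap with those above. In contrast, 0 of 1035 pairs among the nuclear genes of oxidative phosphorylation were called. Depth and mitochondrial content moved with the same genes. The residuals of Cyp2e1 correlated with the log UMIs of the cell at -0.24 and -0.28 and with its share of mitochondrial messages at -0.24 and -0.48, and those of Alb at 0.27 and 0.31 and at 0.33 and 0.38. With both regressed out, 368 of the 596 pairs stayed called. The correlation of Mup17 and Cyp2e1 in the mouse where it was lower was then 0.69, and that of Alb and Cyp2e1 -0.51.

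The sequence before the start of a gene is where its basal promoter lies, and 6 genes that mark the opposed sides are shown for that reason: Cyp2e1, Cyp2c29 and Mup17 from the one side, and Alb, Cyp2f2 and Mup3 from the other. Each line gives the 250 bases before the annotated start, 5′ to 3′ on the strand of the gene, from RefSeq on build GRCm38.p6. The RefSeq starts differ from the gene positions of GENCODE, so part of a window can lie inside the GENCODE gene. For Cyp2c29 the GENCODE gene begins at 39269405, well before its window. Distances below count from the RefSeq start. Capitals mark any match to 1 of 4 motifs searched on both strands: the TATA box forms TATAAA and TATATAA, which can overlap, GTTAAT, part of the site of the liver factor HNF1, and CTTTGAT, the core site of TCF factors of Wnt signalling. The windows lie at chr7:140763569-140763818 (plus strand), chr19:39286835-39287084 (plus), chr4:61595833-61596082 (minus), chr5:90460620-90460869 (plus), chr7:27119705-27119954 (plus) and chr4:62087318-62087567 (minus), in the order printed.
Cyp2e1: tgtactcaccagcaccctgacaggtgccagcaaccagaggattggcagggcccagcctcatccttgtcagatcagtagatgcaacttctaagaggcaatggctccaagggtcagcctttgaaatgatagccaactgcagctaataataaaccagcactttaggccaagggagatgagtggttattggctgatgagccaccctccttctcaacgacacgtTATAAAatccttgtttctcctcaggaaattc
Cyp2c29: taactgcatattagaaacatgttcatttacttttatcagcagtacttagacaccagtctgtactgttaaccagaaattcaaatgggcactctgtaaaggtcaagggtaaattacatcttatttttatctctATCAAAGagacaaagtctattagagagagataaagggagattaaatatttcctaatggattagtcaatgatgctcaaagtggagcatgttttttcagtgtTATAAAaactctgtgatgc
Mup17: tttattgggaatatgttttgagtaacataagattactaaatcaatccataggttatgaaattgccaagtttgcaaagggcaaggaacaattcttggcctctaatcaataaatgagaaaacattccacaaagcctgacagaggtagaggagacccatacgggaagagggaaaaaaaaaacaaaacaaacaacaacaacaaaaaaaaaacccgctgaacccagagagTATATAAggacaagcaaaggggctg
Alb: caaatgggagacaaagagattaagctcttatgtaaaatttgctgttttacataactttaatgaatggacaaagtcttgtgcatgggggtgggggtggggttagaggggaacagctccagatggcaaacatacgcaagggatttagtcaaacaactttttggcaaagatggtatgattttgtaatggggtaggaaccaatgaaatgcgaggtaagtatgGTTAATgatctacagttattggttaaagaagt
Cyp2f2: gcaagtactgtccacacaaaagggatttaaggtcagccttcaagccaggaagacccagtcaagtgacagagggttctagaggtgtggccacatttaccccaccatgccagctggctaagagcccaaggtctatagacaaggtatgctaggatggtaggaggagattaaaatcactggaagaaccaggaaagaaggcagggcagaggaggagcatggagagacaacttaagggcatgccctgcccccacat
Mup3: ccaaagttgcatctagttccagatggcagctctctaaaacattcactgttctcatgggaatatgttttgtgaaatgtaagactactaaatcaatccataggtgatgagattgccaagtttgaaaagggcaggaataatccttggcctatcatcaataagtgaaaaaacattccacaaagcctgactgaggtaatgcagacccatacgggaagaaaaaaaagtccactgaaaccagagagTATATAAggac

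Cyp2e1 holds TATAAA from base -31 to -26 before the start. Cyp2c29 holds TATAAA from -19 to -14 and CTTTGAT on the opposite strand from -119 to -113. Mup17 and Mup3 both hold TATATAA, at -25 to -19 and at -11 to -5, and over the 166 bases where their windows align they are alike at 145 (87.3%), although their transcripts were opposed across cells. Alb holds GTTAAT at -32 to -27, and Cyp2f2 holds none of the 4 motifs in this window. Of 32851 windows in the table, 12.4% hold TATAAA, 3.04% TATATAA, 6.43% GTTAAT and 3.21% CTTTGAT. Of the 77 variable genes, 50 matched the table, and 13, 7, 9 and 2 of these hold the motifs in that order. A gene counts here if any of its windows holds the motif, so these counts and the shares of windows are unlike measures. A match is a run of letters and not a measured binding site.

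MUP genes split between the sides. Mup17 followed Cyp2e1, and was negative with Mup3 (r = -0.39 and -0.58) and Mup20 (-0.32 and -0.49). In the cells with least Mup17 the median of Mup3 was 334 and 347 UMIs per 10000, and in those with most it was 252 and 220. Mup3 and Mup20 went together (0.49 and 0.64), and both were negative with Cyp2e1 (-0.46 and -0.60 for Mup3, -0.44 and -0.51 for Mup20). Mup1 and Mup7 were positive with each other (0.45 and 0.45), while their r with Cyp2e1 was -0.16 and -0.52 for Mup1 and -0.10 and -0.30 for Mup7. Mup11 had 0.29 and -0.10. Of 55 MUP pairs 9 were positive and 2 negative, and the negative ones were those of Mup17 with Mup3 and with Mup20. Serpina1e, another member of a near-identical family, was negative with Cyp2e1 (-0.42 and -0.56), as was Serpina1d (-0.30 and -0.38). Serpina1b (-0.20 and -0.22), Serpina1a (-0.18 and -0.27) and Serpina1c (0.03 and -0.26) did not reach the limit. The share of reads that fit more than 1 relative is not known here.

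**Figure D5:**
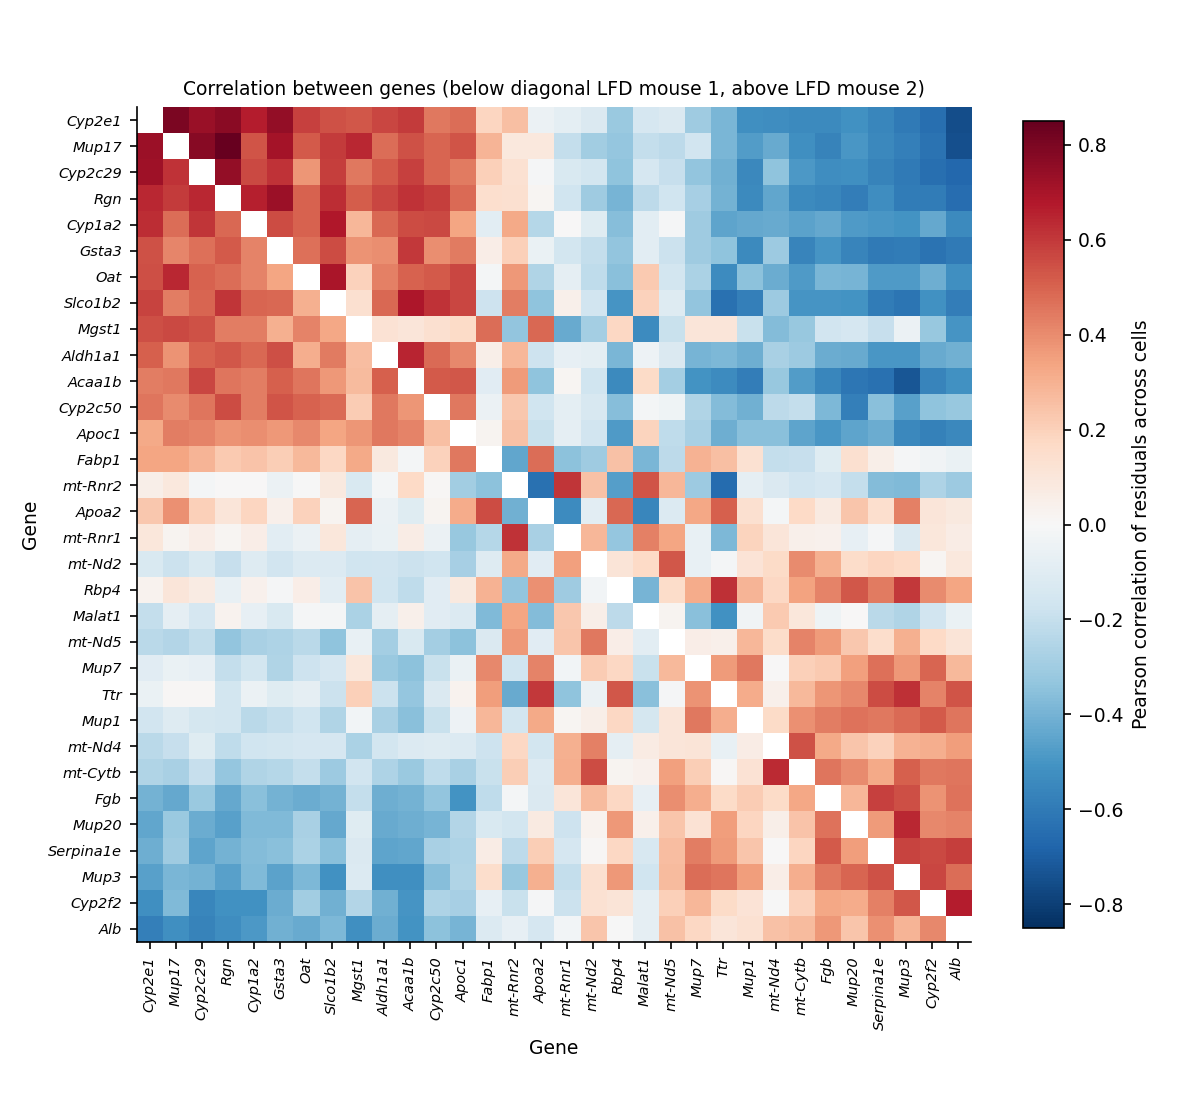
Pearson correlation of residuals across cells between named genes, with LFD mouse 1 below the diagonal and LFD mouse 2 above it, ordered by the correlation with Cyp2e1. Red blocks at either end hold the genes positive with Cyp2e1 and those positive with Alb, and the blue corners between them hold their negative pairs.

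Another set of pairs linked some abundant messages, Apoa2 with Ttr, Fabp1 and Rbp4, and Ttr with Rbp4. Members of this set were opposed to ribosomal and nuclear RNA. The set was not apart from the division above. Ttr (0.45 and 0.62) and Rbp4 (0.37 and 0.60) were also positive with Mup3, and mt-Rnr2 was negative with it (-0.32 and -0.38). Fabp1 did not reach the limit in both mice with Ttr (0.35 and 0.25) or Rbp4 (0.29 and 0.25). Apoa2 and Ttr had r = 0.60 and 0.51, Apoa2 and Fabp1 0.55 and 0.47, and Ttr and Rbp4 0.53 and 0.62. The mitochondrial ribosomal RNA mt-Rnr2 was negative with Ttr (-0.43 and -0.65), Apoa2 (-0.41 and -0.64) and Fabp1 (-0.35 and -0.44). In cells with least Apoa2 the median of mt-Rnr2 was 534 and 433 UMIs per 10000, and in those with most 198 and 200. Malat1, which stays in the nucleus, was likewise negative with Apoa2 (-0.37 and -0.55) and positive with mt-Rnr2 (0.34 and 0.54). Cells rich in mt-Rnr2 thus tended to be rich in Malat1 and lower in Apoa2, Ttr and Fabp1. Not all abundant messages did this. Alb had r = -0.07 and -0.31 with mt-Rnr2 and -0.07 and -0.06 with Malat1. Log UMIs of the cell correlated with the residuals of mt-Rnr2 at -0.23 and -0.15 and with those of Malat1 at -0.27 and -0.22. Cells of fewer UMIs thus tended to hold somewhat more of both. Whether RNA quality plays a part in this set was not tested.

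Mitochondrially encoded messages were positive with each other. Of their 15 pairs 11 were called positive and 0 negative (median r 0.48 and 0.37). The pair of mt-Nd4, a subunit of complex I, and mt-Cytb, of complex III, had r = 0.63 and 0.54, and mt-Nd2 and mt-Nd5, both of complex I, 0.45 and 0.53. With log UMIs and the mitochondrial share of the cell regressed out together, a share that holds these genes, r in the mouse where it was smaller in size was -0.0699 for the former pair and 0.231 for the latter. The ribosomal RNAs mt-Rnr1 and mt-Rnr2 had 0.61 and 0.61. All of these are known to be cut from polycistronic transcripts of the mitochondrial heavy strand. At the limit of 0.3, positive pairs joined 107 genes into 1 connected set, which holds these mitochondrial messages and ribosomal RNAs. At a limit of 0.4 there were 3 separate groups. The largest, of 45 genes, holds genes of both opposed sides, such as Cyp2e1 and Alb, and also Apoa2, Ttr, Fabp1 and Rbp4. Another was the 6 mitochondrial messages mt-Co1, mt-Cytb, mt-Nd1, mt-Nd2, mt-Nd4 and mt-Nd5, and the last was the pair of ribosomal RNAs.

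Apoc1 mostly went with genes of the Cyp2e1 side and against genes of the Alb side. It was positive with 12 genes, among them Mup17, Cyp2c29, Cyp2e1, Acaa1b, Oat and Rgn, and its negative partners were 7 genes, Trf, Fgb, Sds, Alb, Hpx, Gc and Hal. With Trf it had r = -0.51 and -0.53, and with Fgb -0.51 and -0.49. The median of Trf was 88.2 and 110 UMIs per 10000 in the cells with least Apoc1 and 54.3 and 62.7 in those with most. Apoc1 itself moved little, with the small excess CV given above. Among the genes that mark these cells, those whose pattern over cells was most like that of Alb were Gc, the vitamin D carrier (0.42 and 0.52), Hsd17b13, a lipid droplet enzyme (0.41 and 0.44), and Cyp2f2. For Apoa2 they were Ttr, Mgst1 (0.50 and 0.49) and Fabp1, and for Fabp1 they were Apoa2, Mup11 (0.54 and 0.37) and Cyb5, the electron carrier cytochrome b5 (0.43 and 0.32). Among genes joined by positive pairs, 1 pair stood apart from the large connected set, Egfr, the receptor of epidermal growth factor, and Pzp, a plasma protease inhibitor (0.42 and 0.36).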

How the data were processed

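Hepatocytes of 2 LFD mice were profiled by Drop-seq and assigned to a mouse by the prefix of each cell's column. 0 columns of cells were left unmapped. The tool STAR 2.6.0a and the build mm10 are named per the submitters' processing notes. The sources used here do not give cell filters, annotation, strand, doublet removal or the counting of shared reads. The deposited values are the natural log of 1 plus UMIs per 10000 of a cell, a natural log scale inferred from the values. UMIs were recovered from them: 100% came out whole (tolerance 0.001), and each cell sums to 10000. A table smoothed with MAGIC by the authors, whose scale no source states and which was assumed to be the same natural log, served as an alternative.

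Shares, indices of dispersion and correlations of Pearson residuals were computed per mouse with Python 3.11.15, NumPy 2.4.6, SciPy 1.17.1 and pandas 2.3.3, and tested on simulated data. The index limit is a threshold, not a p-value. LFD mice are labelled as separate animals. Named were the 20 most abundant genes, the 20 variable genes of highest and 5 of lowest excess CV (predicted genes passed over; 1 gene is not reported here), the 15 positive and 10 negative pairs of largest size, and 5 pairs within families. Members and gene lists were chosen with earlier results of these data known. Gene positions are from GENCODE on mm10.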

Additional observations from a re-analysis of the deposited data

How the results depend on the processing

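With 2 mice, agreement between them is the only replicate check. No paired analysis was possible because only 1 group was used and its replicates have no partner. The 20 most abundant genes summed to 34.3%. They summed to 32.2% with mitochondrial RNA left out of the total, 33.9% as a mean over cells and 34.1% once the deepest 5% of cells were dropped, and to 34.2% and 34.5% in either mouse alone. The 77 variable genes became 46 with a limit of 2 and 39 with cells thinned to 1916 UMIs, all of which were among the 77, and between 114 and 119 with 1 mouse left out. The 596 pairs became 176 and 2189 with limits of 0.4 and 0.2, 397 with depth and mitochondrial share regressed out, and between 1125 and 3402 with 1 mouse left out. Without the 20 most abundant genes in totals and pairs, 383 were called, beside 336 of the 596 that hold none of them. In alternatives added after seeing the data, 261 pairs were called with thinned cells and 326 without the 2 most deviating cells. After MAGIC smoothing, 52903 pairs passed (71.6% of all), with a median size of r of 0.637 and 0.729, beside 0.0725 and 0.0907 unsmoothed, and 9200 of them had the opposite sign in both mice unsmoothed. The correlation of mt-Nd4 and mt-Cytb reversed to -0.0699 with log UMIs and mitochondrial share regressed out together, a share that holds these genes by construction. Of the values for named genes, 13 of excess CV and 2 of correlation fell below their limits under some alternative. The median r between the pericentral and periportal lists stayed from -0.883 (smoothed) to -0.166 (thinned).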
